A study of Homo sapiens with 6 samples.

Results

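The enzymes that break down phenylalanine and tyrosine were followed in RNA sequencing libraries labelled HepG2, a long-established line from a human liver tumour. Members were the rows of the deposited count table whose gene name was PCBD1, QDPR, TAT, HPD, HGD, GSTZ1 or FAH, and all 7 had a row among the 27452 of the table. The set was chosen for the high level of HPD and for its lower level with the STAT3 shRNA, so those values are a description and carry no test here. The other members belong by their place in the pathway, but all members and gene lists were chosen with earlier results of these data known. Their tests, that of FAH included, are read with that limit. By their labels, the cells compared carried an shRNA against STAT3 (3 libraries) or a control shRNA (3 libraries), and the labels state no other treatment. An shRNA is cut in the cell into a short RNA that guides the removal of a matching messenger RNA, and STAT3 is a transcription factor activated by cytokine receptors. The labels do not say whether the numbered libraries are separate cultures, clones or different shRNA sequences. P-values are therefore set by the spread between libraries alone, which could be technical. Differences between the groups of cells that are not due to the shRNA cannot be told apart from it.

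Phenylalanine is hydroxylated to tyrosine with the help of the cofactor tetrahydrobiopterin. PCBD1 and QDPR regenerate that cofactor after each round. TAT, the tyrosine aminotransferase, removes the amino group from tyrosine, HPD turns the resulting 4-hydroxyphenylpyruvate into homogentisate, HGD opens the homogentisate ring, GSTZ1 isomerizes maleylacetoacetate, and FAH splits fumarylacetoacetate into fumarate and acetoacetate. The route is known as a task of hepatocytes and of the kidney, and inherited loss of its enzymes causes diseases such as tyrosinaemia and alkaptonuria.

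The RefSeq promoter table (GRCh38.p14, 250 bases before to 50 after each annotated start) held 7 windows for 5 of the 7 members, 2 of them for HPD. The HPD windows are shown because HPD is the member that differed most between the groups, and because counts per gene do not say which of its starts was used. Both are on the minus strand of the genome and printed 5′ to 3′ in the direction of the gene. Capitals mark GC boxes (GGGCGG or its reverse complement CCGCCC).
HPD, chr12:121858810-121859109: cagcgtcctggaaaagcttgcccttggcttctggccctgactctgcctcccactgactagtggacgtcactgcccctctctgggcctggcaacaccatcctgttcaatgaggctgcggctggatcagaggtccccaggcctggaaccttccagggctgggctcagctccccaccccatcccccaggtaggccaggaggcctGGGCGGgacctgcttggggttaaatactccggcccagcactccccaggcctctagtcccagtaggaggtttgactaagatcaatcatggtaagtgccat
HPD, chr12:121888562-121888861: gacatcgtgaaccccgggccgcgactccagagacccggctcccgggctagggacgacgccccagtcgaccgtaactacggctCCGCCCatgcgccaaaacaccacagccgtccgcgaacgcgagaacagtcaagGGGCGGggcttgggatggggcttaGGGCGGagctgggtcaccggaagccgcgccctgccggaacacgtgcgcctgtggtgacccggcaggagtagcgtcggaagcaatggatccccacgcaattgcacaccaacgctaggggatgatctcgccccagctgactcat
Each window was searched on both strands for the STAT motif TTCNNNGAA, its STAT3-preferred form TTCCNGGAA, which is contained in it, and GGGCGG. None of the 7 windows held TTCNNNGAA, which stood in 7.66% of all 35116 windows in the table, or TTCCNGGAA, which stood in 1.15%. GGGCGG stood in every window of a member and in 45.0% of all windows. The 2 windows of FAH overlap and share some of these boxes. The windows of members were 61.3% to 79.0% G and C, a share that was not measured over all windows. Such matches describe letters in these windows and say nothing about binding.

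The libraries held 17694642 to 25862027 counts with the STAT3 shRNA and 17408543 to 20133064 with the control shRNA. STAT3 itself averaged 35.6 ± 0.73 CPM with the STAT3 shRNA and 251.5 ± 8.67 CPM with the control shRNA (SD, n = 3 each). The labels name the shRNA of each library and give no level of STAT3. CPM is the count of a gene per 1000000 counts of the library, whose size is scaled by a TMM factor. On the first principal component, with 56.4% of the variance, the groups were separate. The STAT3 shRNA libraries lay at -45.35 to -31.32 and the control libraries at 28.26 to 52.63. The second component held 20.9% of the variance. There STAT3 shRNA library 2 lay apart from its group, at -31.1 where STAT3 shRNA libraries 1 and 3 lay at 6.32 and 9.48. Control shRNA library 1 lay at 44.3 where control libraries 2 and 3 lay at -1.56 and -27.5. Albumin (ALB), a defining hepatocyte product, had 0, 0 and 3 counts in the STAT3 shRNA libraries and 2, 0 and 0 in the control libraries. Of 18 hepatocyte markers listed, 12 had a row, 8 of these had at most 3 counts in every library, and CPS1 and TF were the 2 that reached 1 CPM. The 11 without CPS1 summed to 1.25 to 1.82 CPM with the STAT3 shRNA and to 0.875 to 2.37 CPM with the control shRNA, so apart from CPS1 the markers of the labelled cell type were near 0. CPS1, the entry enzyme of the urea cycle, fell to 3044 ± 171 CPM with the STAT3 shRNA, against 4642 ± 748 CPM in the control libraries (log2 fold change -0.61 ± 0.12; edgeR adjusted p = 0.00782). Markers of intestinal epithelium (4 of 8 with a row) did not reach 1 CPM, and PAX8, the 1 of 10 kidney tubule markers with a row, averaged 1.84 CPM with the STAT3 shRNA and 1.05 CPM with the control shRNA. Of 8 fibroblast markers listed, 6 had a row and 3 reached 1 CPM, with a median log2 fold change of 0.30. COL1A1 fell to 15.3 ± 1.1 CPM with the STAT3 shRNA, against 40.3 ± 2.86 CPM with the control shRNA (-1.40 ± 0.108; edgeR adjusted p = 5.15e-05). DCN averaged 14.6 ± 0.765 CPM with the STAT3 shRNA and 11.9 ± 1.68 CPM with the control shRNA (0.30 ± 0.134), and PDGFRB 6.06 ± 0.674 CPM with the STAT3 shRNA and 4.82 ± 0.809 CPM with the control shRNA (0.33 ± 0.183), and neither passed (edgeR adjusted p = 0.167 and 0.256). The other 3, at low counts, were not tested: THY1 averaged 0.514 CPM with the STAT3 shRNA and 0.11 CPM with the control shRNA, LUM 0.246 CPM with the STAT3 shRNA and 0.0351 CPM with the control shRNA, and COL3A1 0.0125 CPM with the STAT3 shRNA and 0.197 CPM with the control shRNA. What these marker levels add to the values that follow was not tested.

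Of the 7 members, 5 passed the filter on low counts and 2, TAT and HGD, did not. Among the 4 tested members other than HPD, FAH fell and PCBD1, QDPR and GSTZ1 did not pass the test. Over all genes tested, 17.5% were called at a false discovery rate (FDR) of 0.05 with edgeR's quasi-likelihood test, 8.13% lower and 9.39% higher. A count of 1 in 4 is too small to set against those shares. Adjusted p-values throughout are Benjamini-Hochberg values over all 14999 genes tested, a positive log2 fold change (± SE) means higher with the STAT3 shRNA, and a mean level is in CPM ± SD over the 3 libraries of a group.

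Neither enzyme of tetrahydrobiopterin regeneration passed the test. PCBD1, which removes water from the used cofactor, had 86.6, 91.1 and 78.0 CPM in the STAT3 shRNA libraries, against 74.7, 96.2 and 111.6 CPM in the control libraries. The STAT3 shRNA values all lay inside the range of the control values, with a CV of 7.79% in the STAT3 shRNA libraries and 19.7% in the control libraries. Its log2 fold change was -0.14 ± 0.141 (95% interval -0.46 to 0.18; edgeR adjusted p = 0.528), and it was 0.00 without control library 3. QDPR, which reduces the cofactor, had 26.2, 27.8 and 26.5 CPM with the STAT3 shRNA and 23.2, 24.8 and 27.4 CPM with the control shRNA. The groups overlapped, with a log2 fold change of 0.09 ± 0.104 (95% interval -0.14 to 0.33; edgeR adjusted p = 0.573). The intervals do not hold a 2-fold change of either gene, but smaller ones in either direction remain possible.

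TAT, the enzyme that starts tyrosine breakdown, was at the floor of detection. It had 1, 0 and 0 counts in the STAT3 shRNA libraries and 0, 0 and 0 in the control libraries. Taking 3 counts as the most that a count of 0 allows, TAT could lie at up to 0.147 CPM in STAT3 shRNA library 2 and 0.164 CPM in STAT3 shRNA library 3, and at up to 0.158 to 0.175 CPM in a control library, which covers counting error only. TAT-AS1, an antisense gene over 2 annotated exons of TAT, had 0, 0 and 0 counts with the STAT3 shRNA and 1, 0 and 0 with the control shRNA. No difference of TAT could be detected at this depth.

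HPD was by count the most abundant member in the control libraries. It had 56.8, 61.2 and 56.2 CPM in the STAT3 shRNA libraries, from 1511, 1247 and 1030 counts. In the control libraries it had 166.3, 173.0 and 214.1 CPM, from 2852, 3240 and 4061 counts. The STAT3 shRNA libraries lay close together (CV 4.76%), the control libraries spread more (CV 14%) with library 3 highest, and the groups did not overlap. The mean was 58.1 ± 2.76 CPM with the STAT3 shRNA and 184.5 ± 25.9 CPM with the control shRNA, a log2 fold change of -1.67 ± 0.114 and a 3.18-fold lower level. These are the values for which the set was chosen. PCBD1, QDPR, GSTZ1 and FAH, like HPD, were lowest in control library 1 and highest in control library 3. Among the STAT3 shRNA libraries, library 2 was highest for each of these genes except FAH. The cause of this shared order was not tested. In bulk libraries such as these, fewer cells with a transcript and less of it per cell cannot be told apart. Among the 14999 genes tested HPD was number 3933 by mean CPM with the STAT3 shRNA and number 1055 with the control shRNA. An antisense gene, AC079360.1, is annotated over 4 exons of HPD but had no row in the deposited counts, so it could not be analysed. Without a known strand setting, its reads cannot be told from those of HPD.

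**Figure D1:**
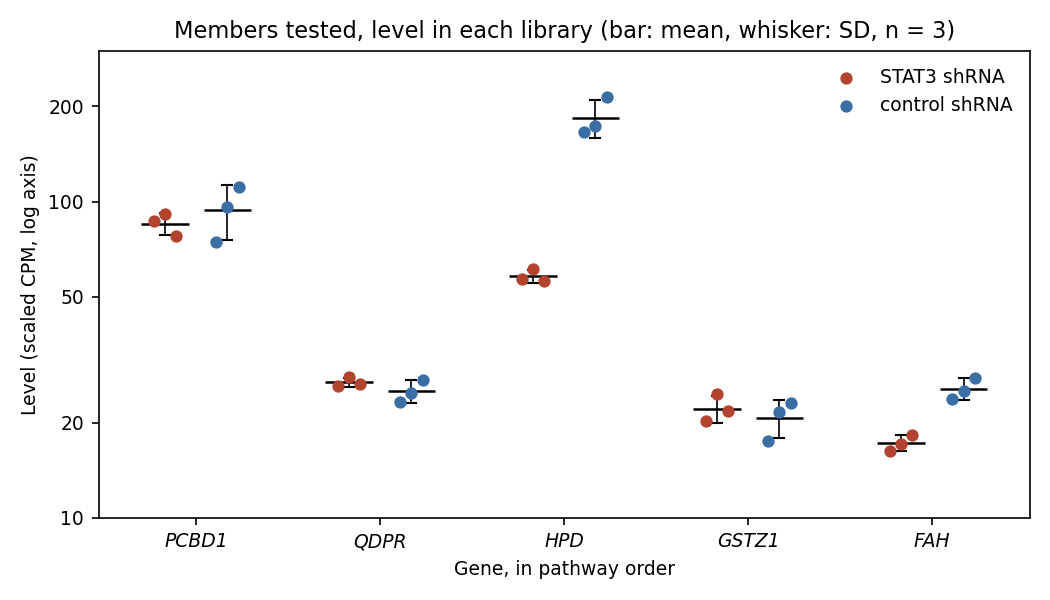
Level of the 5 tested members in each library, as scaled CPM on a log axis, with the 3 STAT3 shRNA libraries left of the 3 control shRNA libraries (points: libraries; bar: mean; whisker: SD). HPD lies at 56.2 to 61.2 CPM with the STAT3 shRNA and 166.3 to 214.1 CPM with the control shRNA, FAH is the other member without overlap, and PCBD1, QDPR and GSTZ1 overlap.

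HGD, which follows HPD in the pathway, was close to absent from the libraries. It had 0, 0 and 0 counts with the STAT3 shRNA, against 1, 4 and 1 with the control shRNA. All but control library 2 were within the 3 counts that a count of 0 allows, so no fold is given and a difference was not detectable at this depth. HPD, between them in the pathway, had 1030 to 4061 counts per library.

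GSTZ1, the isomerase of the next step, had 20.2, 24.6 and 21.7 CPM in the STAT3 shRNA libraries, against 17.6, 21.6 and 23.0 CPM in the control libraries. The groups overlapped and the log2 fold change was 0.09 ± 0.134 (95% interval -0.21 to 0.40; edgeR adjusted p = 0.671). POMT2, which encodes a protein O-mannosyltransferase, lies on the other strand and overlaps 1 annotated exon of GSTZ1. It averaged 29.8 ± 1.58 CPM with the STAT3 shRNA and 30.8 ± 1.82 CPM with the control shRNA (log2 fold change -0.04 ± 0.0992; edgeR adjusted p = 0.802).

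FAH, the last enzyme of the route and the one lost in tyrosinaemia type I, fell. It had 16.3, 17.2 and 18.3 CPM in the STAT3 shRNA libraries, against 23.8, 25.1 and 27.8 CPM in the control libraries. Every STAT3 shRNA library lay below every control library; over all genes tested, 35.7% had no overlap between the groups. The mean was 17.2 ± 0.98 CPM with the STAT3 shRNA and 25.6 ± 2.03 CPM with the control shRNA, a log2 fold change of -0.57 ± 0.109 or a 1.48-fold lower level (edgeR adjusted p = 0.00676). The call held in all 14 alternative fits, with adjusted p-values from 0.000381 to 0.0475.

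Ratios of counts within a library do not depend on how libraries are scaled. HPD, chosen for its fall, is the numerator of each ratio below. Their separation between the groups therefore describes that choice and is no further evidence. HPD had 0.656, 0.672 and 0.72 counts per PCBD1 count with the STAT3 shRNA, against 2.23, 1.8 and 1.92 with the control shRNA. Per FAH count it had 3.48, 3.56 and 3.07 with the STAT3 shRNA, against 6.99, 6.88 and 7.71 with the control shRNA. FAH was also lower, and this ratio differed least between the groups, by a factor of 0.469, while those to QDPR and GSTZ1 differed by 0.295 each. HPD made up 27.7 ± 0.241% of the summed counts of the 7 members with the STAT3 shRNA and 52.7 ± 1.85% with the control shRNA. HPD and STAT3 did not change in proportion, since HPD had 1.63 ± 0.0785 counts per STAT3 count in the STAT3 shRNA libraries and 0.735 ± 0.12 in the control libraries.

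**Figure D2:**
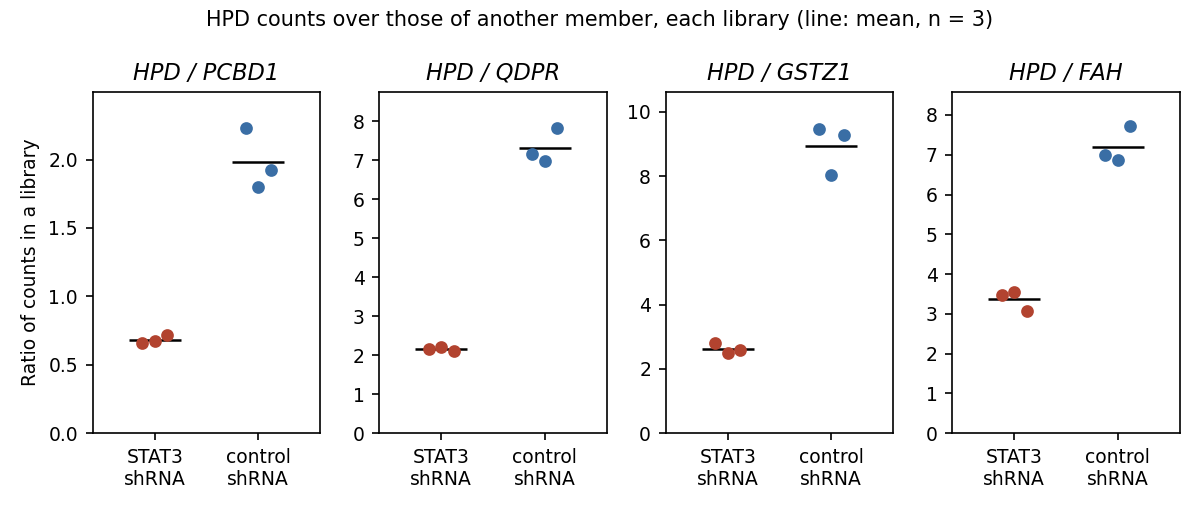
Ratio of HPD counts to the counts of PCBD1, QDPR, GSTZ1 and FAH within each library, STAT3 shRNA left and control shRNA right (points: libraries; line: mean of 3). All 4 ratios are separate between the groups, with means of 0.683 (STAT3 shRNA) against 1.98 (control) for PCBD1 and 3.37 (STAT3 shRNA) against 7.19 (control) for FAH. All share HPD, which was chosen for its fall, so the separation is a description.

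Per length, the order of the members differed between the groups at its top. Levels were divided by the length of the longest annotated transcript (GENCODE 29). With the STAT3 shRNA, PCBD1 came first at 84.7 ± 6.6 CPM per kilobase, followed by HPD at 34.0 ± 1.62, QDPR at 16.3 ± 0.515, FAH at 5.03 ± 0.286 and GSTZ1 at 4.13 ± 0.414. With the control shRNA, HPD stood at 108 ± 15.1 and PCBD1 at 93.6 ± 18.4 CPM per kilobase, closer together than their SDs. QDPR followed at 15.2 ± 1.27, FAH at 7.46 ± 0.591 and GSTZ1 at 3.87 ± 0.53, with HGD at 0.054 and TAT listed at 0. The places of FAH and GSTZ1 rest on the length used: with the mean transcript length GSTZ1 stood at 19.0 and FAH at 12.6 CPM per kilobase with the STAT3 shRNA, and at 17.8 and 18.6 with the control shRNA. So does the closeness of HPD and PCBD1 with the control shRNA. With the mean transcript length they stood at 164 ± 23.0 and 133 ± 26.1 CPM per kilobase, further apart than either SD.

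The genes that supply the front of the pathway were then compared. Of 8 genes listed for phenylalanine hydroxylation and tetrahydrobiopterin supply, 7 were tested and 2 passed, both higher, with a median log2 fold change of 0.10 beside -0.01 for all genes tested. Over all genes tested, 9.39% were called higher. DNAJC12, a co-chaperone of the aromatic amino acid hydroxylases, rose to 27.3, 23.8 and 25.6 CPM with the STAT3 shRNA, against 11.4, 10.8 and 12.3 CPM in the control libraries (1.15 ± 0.111; edgeR adjusted p = 0.000176). GCH1, the first and limiting enzyme of tetrahydrobiopterin synthesis, rose to 19.4 ± 0.883 CPM with the STAT3 shRNA, against 14.7 ± 1.11 CPM with the control shRNA (0.40 ± 0.11; edgeR adjusted p = 0.036). That call was lost without STAT3 shRNA library 1 (0.132), 2 (0.0633) or 3 (0.149) or without control library 2 (0.16). PCBD2, the paralogue of PCBD1, averaged 16.6 ± 2.33 CPM with the STAT3 shRNA and 15.5 ± 0.452 CPM with the control shRNA (0.10 ± 0.127; edgeR adjusted p = 0.639).

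Of 6 transporters that carry aromatic amino acids, all tested, 1 rose and 3 fell (median -0.22). Over all genes tested, 9.39% were called higher and 8.13% lower. SLC7A5, the transport chain of the large neutral amino acid exchanger LAT1, fell to 1186 ± 68.4 CPM with the STAT3 shRNA, against 1704 ± 73.5 CPM with the control shRNA (-0.52 ± 0.0831; edgeR adjusted p = 0.0025). SLC3A2, its partner chain, fell to 394 ± 39.7 CPM with the STAT3 shRNA, against 560.3 ± 76.7 CPM with the control shRNA (-0.51 ± 0.12; edgeR adjusted p = 0.0188). SLC7A8, the transport chain of the related exchanger LAT2, rose to 8.62 ± 0.704 CPM with the STAT3 shRNA, against 2.32 ± 0.539 CPM with the control shRNA (1.89 ± 0.2; edgeR adjusted p = 0.000292). SLC16A10, an aromatic amino acid transporter of low level here, had 14, 4 and 12 counts with the STAT3 shRNA, against 18, 50 and 31 with the control shRNA (-1.95 ± 0.5; edgeR adjusted p = 0.0263). The SLC3A2 call was lost without STAT3 shRNA library 1 (0.098) or 3 (0.0902) or control library 2 (0.0895). The SLC16A10 call was lost without STAT3 shRNA library 1 (0.0856), 2 (0.0662) or 3 (0.0556) or control library 2 (0.129).

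Of 13 genes listed as other enzymes of tyrosine use, 10 had a row and 6 were tested, of which 2 passed, both lower (median -0.18). The share called lower over all genes tested was 8.13%. GOT1, the cytosolic aspartate aminotransferase, which can also act on tyrosine, fell to 58.2 ± 1.38 CPM with the STAT3 shRNA, against 73.8 ± 1.73 CPM with the control shRNA (-0.34 ± 0.082; edgeR adjusted p = 0.0201). The call was lost without STAT3 shRNA library 1 (0.0968), 2 (0.0679) or 3 (0.0803) or control library 2 (0.093), and with library totals as the scaling (0.0728). MIF, a cytokine with tautomerase activity on phenylpyruvates, had 423.3, 536.3 and 484.0 CPM with the STAT3 shRNA, against 575.5, 663.6 and 949.7 CPM with the control shRNA (-0.60 ± 0.177; edgeR adjusted p = 0.0484). That call was lost in 10 of 14 alternative fits, with adjusted p of 0.0519 to 0.173 in these, among them the fits without any 1 STAT3 shRNA library (0.173, 0.0622 and 0.139) and without control library 2 (0.088) or 3 (0.0644, log2 fold change -0.36). HPDL, the paralogue of HPD, averaged 31.0 ± 3.6 CPM with the STAT3 shRNA and 34.4 ± 7.91 CPM with the control shRNA (-0.15 ± 0.17; edgeR adjusted p = 0.58). The FAH paralogues FAHD1 (-0.17 ± 0.106) and FAHD2A (-0.08 ± 0.105), the last with a close copy that could share its reads, did not pass the test either (edgeR adjusted p = 0.305 and 0.64). DDC, TYRP1 and IL4I1, which lead to or use other products of aromatic amino acids, averaged under 0.5 CPM in each group.

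Downstream of FAH, 9 genes of fumarate and acetoacetate use were listed and 8 tested, of which 2 passed, both lower (median -0.02). The share called lower over all genes tested was 8.13%. ACAT2, the cytosolic thiolase that joins acetyl-CoA units, fell to 89.2 ± 4.69 CPM with the STAT3 shRNA, against 134.0 ± 10.5 CPM with the control shRNA (-0.59 ± 0.0927; edgeR adjusted p = 0.00242). AACS, which activates acetoacetate in the cytosol for lipid synthesis, fell to 43.1 ± 0.848 CPM with the STAT3 shRNA, against 55.5 ± 1.36 CPM with the control shRNA (-0.36 ± 0.0852; edgeR adjusted p = 0.018). The AACS call was lost without STAT3 shRNA library 1 (0.0807), 2 (0.0602) or 3 (0.0873) or control library 2 (0.0678), and with library totals (0.0623). FH, the fumarase, averaged 201.6 ± 9.54 CPM with the STAT3 shRNA and 190.8 ± 8.44 CPM with the control shRNA (0.08 ± 0.0822), and OXCT1, which activates acetoacetate in mitochondria, 289.4 ± 5.89 CPM with the STAT3 shRNA and 278.9 ± 5.83 CPM with the control shRNA (0.05 ± 0.0751).

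**Figure D3:**
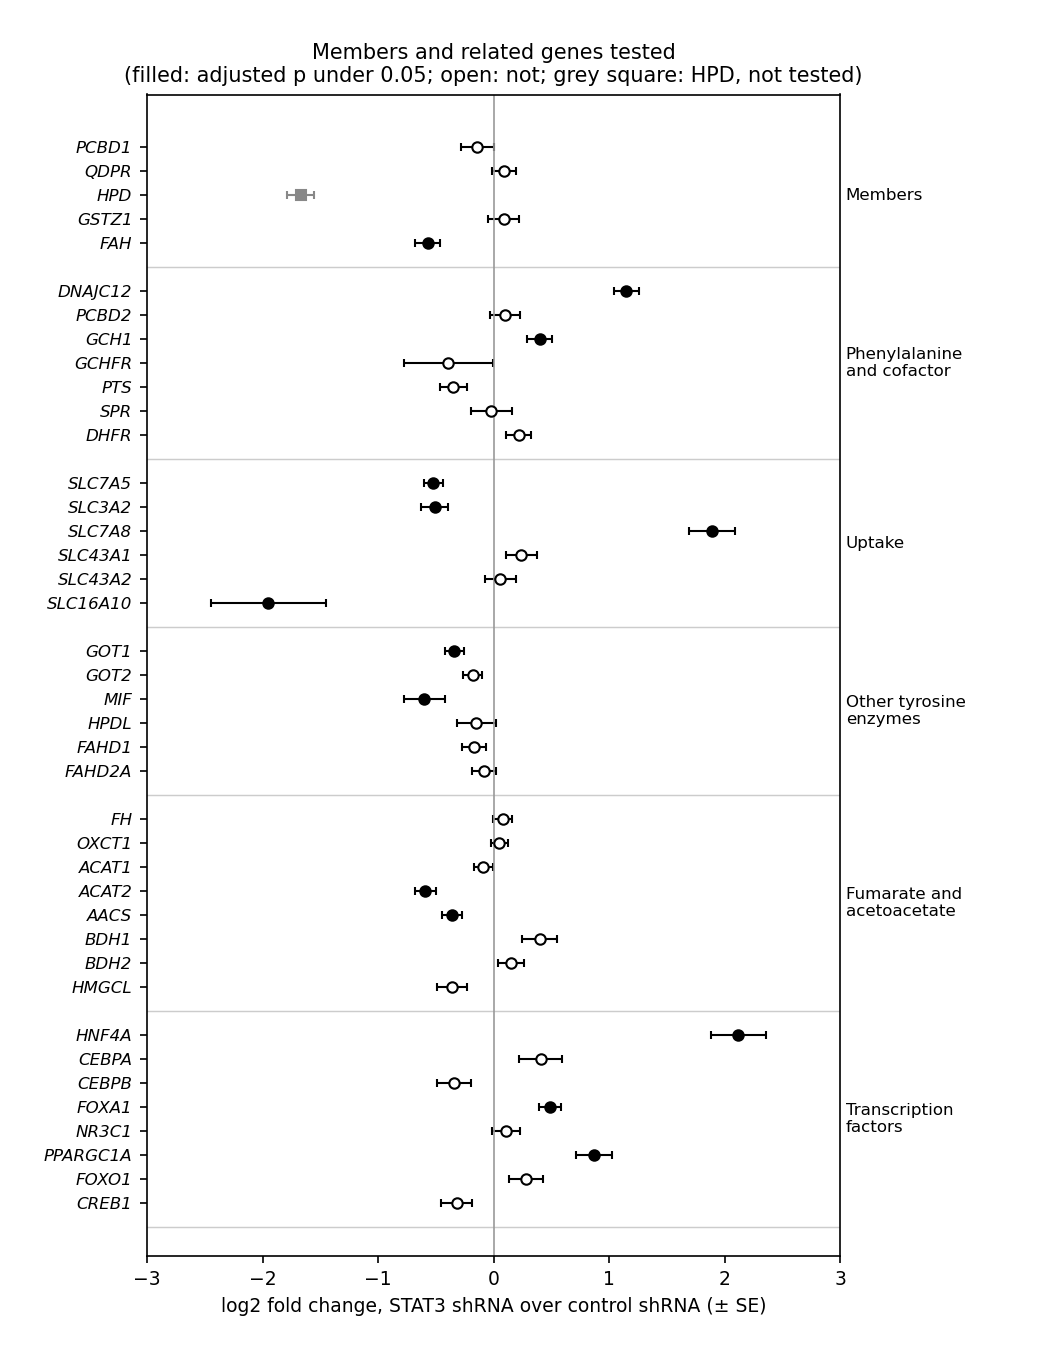
Log2 fold change (STAT3 shRNA over control shRNA, ± SE, 3 libraries each) of the tested members and of tested genes from 5 related lists. Filled points passed an adjusted p of 0.05 and open points did not; the grey square is HPD at -1.67, which is not tested. FAH is at -0.57, DNAJC12 at 1.15, SLC7A8 at 1.89 and HNF4A at 2.12.

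Transcription factors described for these enzymes were tested for 9 of 11 listed genes, of which 4 passed, all higher (median 0.41). Over all genes tested, 17.5% were called and 9.39% were called higher. Without control library 1 or 3 the list had 5 calls, 1 of them lower. Without STAT3 shRNA library 3 or control library 2 it had 3, all higher. HNF4A, a nuclear receptor of hepatocytes, rose to 7.21, 7.56 and 4.96 CPM with the STAT3 shRNA, against 1.46, 1.28 and 1.79 CPM in the control libraries (2.12 ± 0.24; edgeR adjusted p = 0.000406). PPARGC1A, a coactivator of fasting genes, rose to 16.7 ± 2.28 CPM with the STAT3 shRNA, against 9.16 ± 1.41 CPM with the control shRNA (0.87 ± 0.159; edgeR adjusted p = 0.00538). The pioneer factor FOXA1 rose to 49.2 ± 4.08 CPM with the STAT3 shRNA, against 35.1 ± 1.07 CPM with the control shRNA (0.49 ± 0.0982; edgeR adjusted p = 0.00867), a call lost without STAT3 shRNA library 3 (0.0569) or control library 2 (0.0576). The glucocorticoid receptor NR3C1, which induces TAT in liver, averaged 107.3 ± 5.96 CPM with the STAT3 shRNA and 99.7 ± 15.9 CPM with the control shRNA (0.11 ± 0.12; edgeR adjusted p = 0.586).

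For comparison, 38 genes for the breakdown of other amino acids were listed and 29 tested, of which 5 rose and 5 fell, or 34.5% called (median -0.21). Over all genes tested, 17.5% were called. KYNU, the kynureninase of tryptophan breakdown, fell to 49.7 ± 5.07 CPM with the STAT3 shRNA, against 145.1 ± 5.44 CPM with the control shRNA (-1.55 ± 0.0993; edgeR adjusted p = 1.9e-05). BCAT1, the cytosolic branched-chain aminotransferase, fell to 6, 1 and 5 counts with the STAT3 shRNA, against 167, 151 and 116 with the control shRNA (-5.39 ± 0.393; edgeR adjusted p = 3.6e-05). PRODH, the proline dehydrogenase, rose to 10.2 ± 1.72 CPM with the STAT3 shRNA, against 3.62 ± 0.641 CPM with the control shRNA (1.5 ± 0.193; edgeR adjusted p = 0.000777). MCCC1, a carboxylase subunit of leucine breakdown, rose to 135.9 ± 5.02 CPM with the STAT3 shRNA, against 68.5 ± 2.34 CPM with the control shRNA (0.99 ± 0.0822; edgeR adjusted p = 8.1e-05). Like TAT and HGD, several hepatocyte enzymes were near the floor, among them HAL and UROC1 of histidine breakdown, each under 0.3 CPM on average in each group.

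HPD lies on chromosome 12, and 7 of the 10 protein-coding genes nearest to it in the annotated order were tested. All 7 had log2 fold changes below 0, from -0.51 to -0.02, and 4 fell, where 8.13% of all genes tested were called lower. The closest to HPD in size was TMEM120B, a membrane protein gene, at -0.51 ± 0.0991 (edgeR adjusted p = 0.00715; 0.0504 without STAT3 shRNA library 1). ORAI1, a calcium channel (-0.37 ± 0.107), RHOF, a small GTPase (-0.33 ± 0.0858), and BCL7A, a chromatin remodelling subunit (-0.38 ± 0.103), had edgeR adjusted p of 0.0445, 0.0286 and 0.0337. The calls of ORAI1, RHOF and BCL7A were lost without any 1 STAT3 shRNA library (adjusted p of 0.0554 to 0.154), without control library 2 (0.117, 0.098 and 0.0992) or 3 (0.0976, 0.0552 and 0.0749), with upper-quartile scaling or library totals, and with the replicate block (0.0677, 0.0551 and 0.0748). The BCL7A call was also lost with no filter on low counts (0.0604). PSMD9, next to HPD, was at -0.13 ± 0.142. Around FAH, on chromosome 15, the 6 tested neighbours had log2 fold changes of -0.32 to 0.69.

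The genes most like HPD across the 6 libraries were picked by Pearson's r of log2(CPM + 0.5) among 11062 other genes averaging 5 CPM or more. They were ANKZF1 (r = 0.9996), SCLY (0.9994), TNFRSF1A (0.9988), TGM2 (0.9986) and BCS1L (0.9982). With 3 libraries in each of 2 groups, such values follow the difference between the groups and the higher control library 3, and no test is attached to them. TGM2, a protein cross-linking transglutaminase, had 51.8, 54.3 and 50.6 CPM with the STAT3 shRNA and 133.2, 138.1 and 153.5 CPM with the control shRNA. ANKZF1, SCLY and BCS1L, 3 of the 5, lie on chromosome 2, TGM2 lies on chromosome 20, and TNFRSF1A lies on chromosome 12, as HPD does. None of the 5 is among the nearest neighbours of HPD described above or an enzyme of its pathway.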

How the data were processed

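The values the authors deposited are raw counts, whole numbers per gene in 6 libraries with differing totals. For the library kit, strand, aligner, counter, build and annotation, nothing is given in the sources used here. Reads of overlapping genes therefore cannot be told apart by strand. Groups and library numbers came from the titles. The members and all gene lists were chosen with earlier results of these data known.

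The tests used edgeR 4.0.16 (R 4.3.3): filterByExpr (minimum count 10, minimum total 15), TMM scaling, which assumes that most genes do not differ, and the two-sided quasi-likelihood F test with robust dispersion on group alone, adjusted by Benjamini-Hochberg over the 14999 genes tested, with calls below an FDR of 0.05. Each SE is the log2 fold change divided by the square root of F. No set test was run. The procedure was tested on simulated counts. Alternatives were other scalings and filters, DESeq2 1.42.0, limma-voom (limma 3.58.1), the library number as a block, and leaving out each library.

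Named genes were STAT3, the members, up to 4 called genes of each list with the smallest adjusted p, paralogues, overlapping genes and neighbours of HPD, and the 5 genes most like HPD; FH, OXCT1, NR3C1, ALB, CPS1, COL1A1 and the other fibroblast markers, PAX8 and genes at the floor were added after their values were seen. Some genes that the lists hold and the rule picks are not reported here. Genes were matched by identifier to GENCODE 29 for transcript length, gene order and overlap. Libraries within a group differed by a chi-square of 4.39 to 46.8 per degree of freedom, which is more than counting error alone. That cannot tell separate cultures from repeated preparations of the same RNA. Total counts of 17408543 to 25862027 per library set the precision, and floors cover counting error only.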

Additional observations from a re-analysis of the deposited data

How the results depend on the processing

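The HPD difference kept its direction in all 14 alternative fits, with log2 fold changes of -1.57 to -1.67 over scalings, filters, tools and block and -1.54 to -1.72 on leaving out a library. HPD was chosen for this fall in the same libraries, so these values remain a description and lend it no support. Among the members other than HPD, FAH alone was called in each fit. Leaving out a library moved the count over all genes, 2627, to 1462 (STAT3 shRNA library 1), 1475 (3), 4098 (control library 1) or 1527 (2), and others gave values within that range; library totals made 68.7% of calls higher and upper-quartile scaling 62.3%, against 53.6%. Leaving out a library gave 1 to 3 calls for phenylalanine and cofactor genes, 2 to 4 for uptake, 0 to 2 for other tyrosine enzymes and 1 to 3 for fumarate and acetoacetate genes. For transcription factors it gave 3 to 5, and for the breakdown of other amino acids 7 to 14. Phenylalanine and cofactor genes had 1 call with no filter. Other tyrosine enzymes had 1 call with RLE scaling, upper-quartile scaling, no filter or limma-voom and 0 with library totals, and fumarate and acetoacetate genes had 1 with library totals. The signs of uncalled genes near 0 turned: PCBD1 to 0.00 and PSMD9 to 0.03 without control library 3 (leaving out others, down to -0.27 and -0.26); MLXIP to 0.04 with upper-quartile scaling, 0.08 with library totals, 0.04 without STAT3 shRNA library 3 and 0.01 without control library 3 (others down to -0.05); and POMT2 to 0.01, 0.05 and, without control library 1, 0.02 (others down to -0.08). The cause was not tested.

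Deviations from the group means correlated at 0.279, 0.191 and -0.226 for same-numbered libraries and at -0.461 to 0.333 for differently numbered ones. With 3 libraries in a group, such values constrain each other and cannot decide whether the numbers pair the libraries. With the replicate block, 2278 genes were called, with 1 call each for phenylalanine and cofactor genes and for other tyrosine enzymes, and GCH1 (adjusted p = 0.0614), GOT1 (0.0511), SLC16A10 (0.063), ORAI1 (0.0677), RHOF (0.0551) and BCL7A (0.0748) were not called. Depth limits TAT and HGD, for which no difference could be seen.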
